A study of Homo sapiens with 6 samples.

Results

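R-loop level at transcription start sites (TSSs) was described in wild-type RPE1 cells, a human line from retinal pigment epithelium immortalised with telomerase. The value for each TSS is the DRIP signal that the authors deposited for WT cells. It was taken for all 3000 TSSs that carry one, out of 9944 TSSs listed by the authors. The 3000 are those listed TSSs with the highest BrU-seq signal in the gene body, so weakly transcribed genes are not among them. A gene can also be missing because the authors' list does not hold it, so absence from the 3000 does not by itself mean weak transcription. The shortest gene named below, RP11-1334A24.5, spans 3.026 kb, so the shortest genes may not be represented. The WT cells were RPE1 iCas9 p53/puro-dKO, which carry an inducible Cas9 and lack p53, and the labels list them as untreated, while the headers of the DRIP and BrU-seq values read WT mock. The study holds 6 anti-TY ChIP-seq libraries, 3 of WT cells without a TY tag and 3 of CFAP20-KO + TY-CFAP20 cells. Only the authors' average over the 3 WT libraries is used below, as a measure of antibody background and local read coverage.

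R-loops are structures in which a transcript stays paired with its template strand and leaves the other DNA strand single. They form during transcription, above all near the starts of active genes, and are removed by RNase H enzymes and by helicases. DRIP isolates them with an antibody against RNA-DNA hybrids, and BrU-seq counts RNA labelled with bromouridine while it is being made.

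DRIP comes as 1 value per TSS. There is no replicate, so no value has an error and no difference below was tested. The unit and the depth are not given in the sources used here. All 3000 values were whole multiples of a step of 0.0590 (within 0.01 of a step), the lowest being 92 steps and the median 8946. What a step stands for in reads is not known. Marker genes bear on the cell type only in part. Of 15 pigment epithelium markers, 6 were among the listed TSSs, 4 of them had a BrU-seq value, and OTX2, MITF and PAX6 were among the 3000. RPE65 was listed without a BrU-seq value. Of 22 markers of other lineages, 10 were listed, and TNNT1 (troponin of slow muscle) and SFTPB (surfactant protein B) were among the 3000.

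The sequences just upstream of the starts show the base composition next to the listed starts at each end of the DRIP range. The listed start of RP11-381O7.3 lies 1921 bases from the nearest annotated start of its gene, so its window is not shown to be a promoter. They run 5′ to 3′ on the coding strand of hg38 and end at the base before the start or, for EGR1, before an annotated untranslated region. Capitals mark CG dinucleotides. The first 2 belong to the genes with the highest and second highest DRIP, and the last 3 to the lowest. The window of PPP1R15A, the third highest, is not shown because most of it is annotated as untranslated region.
EGR1 (chr5:138465290-138465478, + strand): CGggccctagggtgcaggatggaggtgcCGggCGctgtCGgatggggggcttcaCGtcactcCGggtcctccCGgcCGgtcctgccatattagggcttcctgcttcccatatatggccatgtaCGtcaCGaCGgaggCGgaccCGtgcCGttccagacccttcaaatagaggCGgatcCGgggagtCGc
RP11-1334A24.5 (chr5:177479657-177479856, - strand): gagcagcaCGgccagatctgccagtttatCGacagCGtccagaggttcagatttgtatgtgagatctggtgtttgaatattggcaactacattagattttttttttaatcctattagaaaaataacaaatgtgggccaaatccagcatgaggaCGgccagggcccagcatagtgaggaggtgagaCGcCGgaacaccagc
RP11-381O7.3 (chr9:63122372-63122571, - strand): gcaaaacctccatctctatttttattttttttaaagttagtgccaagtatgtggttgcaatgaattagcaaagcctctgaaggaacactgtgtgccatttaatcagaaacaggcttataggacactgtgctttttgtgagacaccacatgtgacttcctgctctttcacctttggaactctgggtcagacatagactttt
RP11-38L15.8 (chr10:46632187-46632386, + strand): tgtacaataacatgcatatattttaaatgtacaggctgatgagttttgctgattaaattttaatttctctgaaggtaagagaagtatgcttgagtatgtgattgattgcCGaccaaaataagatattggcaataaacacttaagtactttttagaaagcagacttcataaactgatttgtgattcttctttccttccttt
AP001631.10 (chr21:43162278-43162477, - strand): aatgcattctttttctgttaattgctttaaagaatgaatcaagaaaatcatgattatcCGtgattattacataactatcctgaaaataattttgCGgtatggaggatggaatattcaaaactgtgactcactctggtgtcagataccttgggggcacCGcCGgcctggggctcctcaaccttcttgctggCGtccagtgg
The EGR1 window held 17 CG dinucleotides in 189 bases, or 8.99 per 100 bases, and 65.6% GC. A CG density at least that high was present in 39.2% of the 200-base windows upstream of all 3000 TSSs, whose median was 7.5 per 100 bases. The window of RP11-1334A24.5 had 6 CG dinucleotides and 46.5% GC. In the low set, RP11-381O7.3 had 0 and 39.5% GC, RP11-38L15.8 had 1 and 30.5%, and AP001631.10 had 5 and 42.0%. A window dense in CG was thus seen at EGR1 but not at RP11-1334A24.5, although both stood at the top.

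DRIP was unevenly spread over the 3000 TSSs. The median was 528 and the mean 869.8, with 25th and 75th percentiles of 337 and 942. The 90th percentile was 7.52 times the 10th. The highest value, 18840 at EGR1, was 35.7 times the median. The 30 highest TSSs held 10.1% of the summed signal, the highest decile 39.1%, and the 1500 lowest TSSs 19.2%. The highest decile, the 300 highest TSSs (10.0% by construction), began at 1769, with 1766 just outside it. The lowest decile (also 10.0%) ended at 234.8, with 234.9 just outside. No TSS was at 0.

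The 12 highest values fell on 3 kinds of start. Growth and stress response genes made up part of them. EGR1, a zinc finger transcription factor switched on within minutes of a stimulus (chromosome 5, 138465490), had a DRIP signal of 18840. PPP1R15A, the stress-induced subunit that directs protein phosphatase 1 to eIF2α (chromosome 19, 48872392), had 15007. DUSP5, a phosphatase acting on ERK, had 9606, and KLF2, a Krüppel-like transcription factor, 9498. CCND1, which encodes cyclin D1, had 8976. All of these 5 genes were strongly transcribed, with BrU-seq signals between 49.7 (KLF2) and 502 (PPP1R15A) against a median of 2.55 over all TSSs.

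A further 4 of the 12 were protein-coding genes outside that group. C15orf52, named CCDC9B in GENCODE, had a DRIP signal of 14724 and a BrU-seq signal of 98.3. YPEL4 had 13239.9 and 38.2, and its start lies within CLP1, a gene on the other strand. TOR4A, of the torsin family of ATPases, had 8584 and 30.5. FASN, the fatty acid synthase gene on chromosome 17 (82098332), stood apart from these. Its DRIP signal of 14226 came with a BrU-seq signal of only 7.52.

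The remaining 3 were clone-named or antisense-named genes with BrU-seq signals of 3.25 or less that lie next to protein-coding genes. RP11-1334A24.5 (chromosome 5, 177479656) is a transcript that GENCODE leaves to be experimentally checked. It lies within 10 kb of DBN1 and PDLIM7, which encode actin-binding and LIM domain proteins of the cytoskeleton. Its DRIP signal was 15015 and its BrU-seq signal 1.74. CELSR3-AS1, named LINC02585 in GENCODE, had 10978 and 3.25. RP4-633O19__A.1, now named MYH9-DT as the divergent transcript of the non-muscle myosin gene MYH9, had 8813 with a BrU-seq signal of 0.851. DRIP as deposited is not split by strand, so signal from a neighbour and from the named gene cannot be told apart at such starts.

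The lowest values formed a different set. The 4 lowest were RP11-381O7.3 (5.43), RP11-38L15.8 (21.6), AP001631.10 (21.7) and CH507-152C13.6 (25.1). In all 4 at least 50% of the 1000 bases around the start occurs again elsewhere in hg38 at 98% identity or more. The windows of AP001631.10 and CH507-152C13.6, both on chromosome 21, differ from each other at 0 of 1000 bases. The anti-TY ChIP density of WT cells within 500 bp of the start was between 0 and 0.158 at these 4, against a median of 0.782 over all TSSs, so coverage in a second, unrelated assay was low there as well. RABL2B, a small GTPase gene near the end of chromosome 22, followed at 43.7 and also has such a copy. LINC01054 (52.5) and CHAMP1 (58.3), which encodes a protein of chromosome alignment in mitosis, both lie near the end of chromosome 13. The TSS listed as TDO2 had 57.8. Its listed position, 68318 on chromosome 4, lies in ZNF595 in GENCODE, which places TDO2 itself at 155854738, so this value is given by position and not read as TDO2.

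Over all TSSs, 41 had a near-identical copy of their window (at least 98% identity over at least 50% of it). Their median DRIP was 238, against 534 for the other 2959, and 20 of the 41 were in the lowest decile (10.0% of all). Their WT ChIP density was 0.291 at the median, against 0.785 for the others. The relation was not uniform. NUTM2A, at 1333.5, and NUTM2G, at 1034, stood well above the overall median with WT ChIP densities of 0.00432 and 0.165. How much of the low DRIP at copied windows comes from the mapping of reads was not tested.

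DRIP followed transcription, with a wide spread. From the lowest to the highest of 5 BrU-seq classes of 600 TSSs, the median DRIP came to 377, 419.8, 492, 608 and 976, a ratio of 2.58. The step was largest between the last 2 classes. Spearman's rho over the 3000 TSSs was 0.400, across genes that share 1 DRIP and 1 BrU-seq value each and are not replicates. Within the 4 lower classes rho of DRIP with BrU-seq was 0.0339 to 0.0740, and within the highest class 0.335. The lower classes each cover a narrow range of BrU-seq, while the highest runs up to 1187. A narrow range lowers rho, so these values do not show where DRIP depends on transcription. The 30 genes with the most BrU-seq signal had a median DRIP of 2852. The classes overlapped. In the highest class 129 of 600 TSSs (21.5%) were at or under the overall median, and in the lowest class 173 (28.8%) were above it. The highest decile of DRIP took 169 TSSs from the highest BrU-seq class (28.2% of it) and 14 from the lowest (2.33%), against 10.0% of all TSSs.

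The most transcribed genes show this spread directly. CYR61, which encodes a matricellular protein and had the highest BrU-seq signal (1187), had a DRIP signal of 2962, only the 125th highest. EEF1A1, the translation elongation factor, was second in BrU-seq (642) with a DRIP signal of 323, below the median of all TSSs. PPP1R15A, the third in BrU-seq, had 15007. The 3 most transcribed genes thus spanned from 0.235 to 10.9 times the running median of DRIP.

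**Figure D1:**
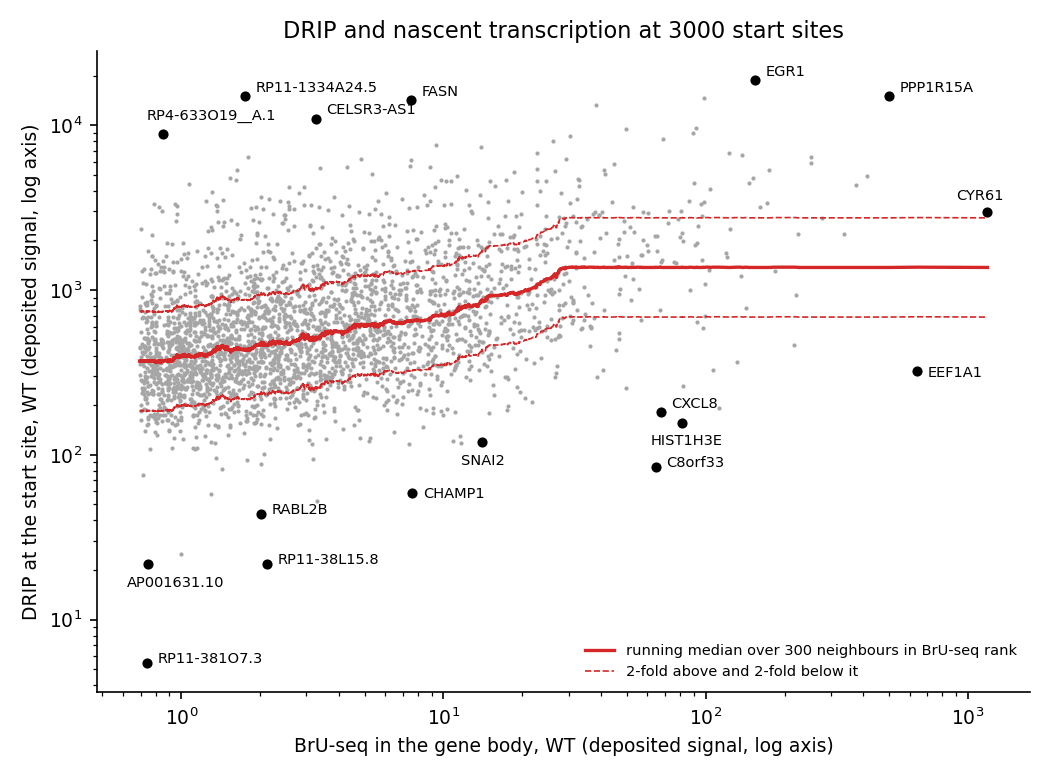
DRIP signal against BrU-seq signal for 3000 start sites in WT cells, both on log axes, each point 1 start site. The red line is the running median over the 300 neighbours in BrU-seq rank and the dashed lines are 2-fold above and below it; EGR1 (18840) is the highest point, EEF1A1 (323) lies far below the line, and the 4 lowest points range from 5.43 to 25.1.

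To find genes off this trend, each DRIP value was divided by the running median over the 300 other TSSs nearest in BrU-seq rank. Within 2-fold of it lay 69.9% of TSSs. At least 2-fold above it were 540 (18.0%), and at or below 0.5 times it 362 (12.1%). Above a BrU-seq signal of 30.4, for 151 TSSs, the running median has no further neighbours to move to and stays flat at 1371, so ratios of the most transcribed genes are read against a level too low for them. A straight line through the log2 values, with a slope of 0.30, does not have this limit and put 474 above and 435 below. The 2 sets differed in GC content. The median GC content from 500 bases before to 500 after the start was 64.2% in the set above and 55.3% in the set below, against 60.5% between them. The median BrU-seq signals were 3.15 and 3.23, which the use of neighbours in BrU-seq rank brings close by construction. The median WT flank densities of the ChIP, taken over the outer 1 kb of the 5 kb on each side, were 0.668 and 0.672.

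Of the genes furthest above the trend outside the 12 already named, several are known from other tissues and had low to middling BrU-seq signals here. NXPH4, a neurexophilin, had a DRIP signal of 6419 at a BrU-seq signal of 1.80, a ratio of 14.7. ANKRD23 had 5315 (ratio 12.1) and PIP5KL1 4795 (11.2). DRD4, the dopamine receptor D4 gene, had 4374 at a BrU-seq signal of 1.07, and ENO3, the muscle enolase gene, 5518 at 3.38. SLC6A8, the creatine transporter gene, had 6214, U73166.2 had 7618, and EXT1, which encodes a heparan sulfate polymerase and is among the 3 longest genes (317 kb), 4657. Of these 8, 7 have another annotated gene within 10 kb, as do 65.4% of all 3000 TSSs, and EXT1 has none. ENO3, for example, neighbours PFN1, RNF167 and SPAG7, and NXPH4 neighbours LRP1.

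The 8 lowest starts already named all lay at or below 0.140 times the trend. Apart from them, the 8 genes furthest below the trend had BrU-seq signals of 10.9 or more. C8orf33, 86.3 kb from the end of chromosome 8, had a DRIP signal of 83.8 at a BrU-seq signal of 64.5, a ratio of 0.0609. Of the 8 lowest starts, RABL2B, LINC01054, CHAMP1 and the TSS listed as TDO2 also lie near a chromosome end. The 2 histone genes among the 3000 were both low. HIST1H3E had 157 at a BrU-seq signal of 81.4 and HIST1H4H 192 at 112. The GC content of their windows was 40.2% and 49.8%, against a median of 60.5% over all TSSs. C8orf33 and PDCD2, also among the 8 genes furthest below, had 69.6% and 67.6%. CXCL8, the interleukin-8 gene, had 181 at 67.5, and its window was poor in GC (34.5%). SNAI2, which encodes the transcription factor Slug, had 120.1, TTC14 118, RP13-349O20.2 122 and PDCD2 129.6, all with BrU-seq signals between 10.9 and 14.0. PDCD2 lies 221 kb from the end of chromosome 6. WT ChIP densities at the 8 genes furthest below the trend lay between 0.467 (C8orf33) and 0.848 (HIST1H3E), so read coverage in that assay was present at each. Of the 8 lowest starts, 3 had a density of 0, RP11-38L15.8 had 0.158 and the TSS listed as TDO2 0.184. RABL2B (0.665), LINC01054 (0.616) and CHAMP1 (0.898) were not that low.

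The relation of DRIP to gene length changed with transcription held. By itself, DRIP was lower at longer genes, with medians of 685, 605, 502, 460.3 and 477 from the shortest to the longest of 5 classes and a rho of -0.147. Longer genes also had less BrU-seq signal (rho -0.413 over the same 3000 genes). With BrU-seq held, the partial rank correlation was 0.0217, with the opposite sign. In the highest BrU-seq class the relation was not monotonic. The median was 1210.1 in the shortest genes, 829 and 907 in the next classes, 1168 in the second longest and 1791 in the 14 longest. In classes 3 and 4 of BrU-seq, too, the longest genes had the highest median (668 and 967). In classes 1 and 2 they did not, with 403 against 471 in the second shortest genes of class 1 and 459 against 519 in the shortest of class 2. Median GC content around the start rose from the shortest to the longest genes in classes 1 to 4. It went from 52.9% to 65.4% in class 3 and from 48.5% to 62.7% in class 1. What part GC content has in the medians by length was not tested. The 237 genes of 80 kb or more had a median DRIP of 501. EXT1 (4657), ZMIZ1 (4633), SH3BP4 (3345) and CALD1 (3309), the caldesmon gene, were the highest of them. Of the 3 longest genes, EXT1 was far above the others, CAMK2D (311 kb) having 874 and FRMD5 (324 kb) 471.

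GC content around the start was related to DRIP with or without BrU-seq held. From GC-poor to GC-rich starts, in 5 classes, the median DRIP was 378, 444, 514, 623 and 738, a ratio of 1.95. Spearman's rho was 0.324 over 3000 TSSs and 0.306 with BrU-seq held, and GC content and BrU-seq were themselves only weakly related (rho 0.112). Taken within single BrU-seq classes, it ranged from 0.275 to 0.359. In the highest BrU-seq class the median DRIP was 643 in the lowest GC class and 1692 in the highest. The WT ChIP density at the start, a background signal, went from 0.732 to 0.804 between the outer GC classes. More R-loops in GC-rich regions and a better recovery of GC-rich fragments cannot be told apart in these values. GC content was chosen as a measure after the data had been seen.

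The other sequence measures had weaker relations. The observed over expected CpG ratio had a rho of 0.103, which was 0.0572 with BrU-seq held and -0.142 with GC content held. GC skew, the excess of G over C on the coding strand, is a property often linked to R-loop formation. In the 500 bases after the start it had a rho of 0.00807 with DRIP. By skew class the medians were 569, 476, 487, 542 and 597, so both ends were above the middle. The DRIP values are 1 number per TSS and hold no position, so where within the region the signal lies cannot be read from them.

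**Figure D2:**
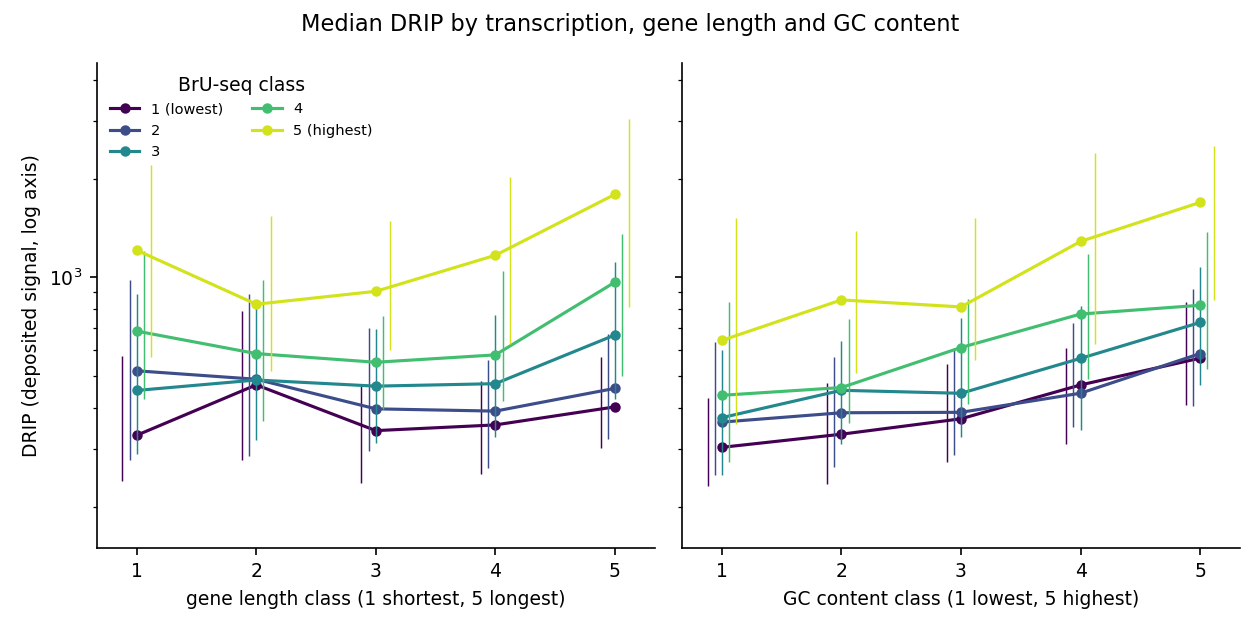
Median DRIP signal (log axis) in classes of gene length (left) and of GC content within 500 bp of the start (right), for each of 5 BrU-seq classes in colour; thin bars run from the 25th to the 75th percentile of start sites. In the highest BrU-seq class the median goes from 643 to 1692 across GC classes, and across length classes it dips to 829 before it reaches 1791 in the 14 longest genes.

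The larger gene classes read from the symbol lay near the trend. The 2416 genes with other symbols had a median DRIP of 540.4 and a ratio to the trend of 1.01. Clone-named and LINC genes (396) had 444 and 0.959, and ZNF zinc finger genes (137) 464 and 0.933. Antisense-named genes (49) were higher, at 651 and 1.24, and 10 of them (20.4%) were in the highest decile (10.0% of all). Their highest member was CELSR3-AS1 and their lowest SVIL-AS1, at 108. By GENCODE biotype, the 2527 protein-coding genes had a median of 536 and the 409 lncRNA genes 473.

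Non-coding genes were split by their surroundings. Of the clone-named and LINC genes, 203 start inside a protein-coding gene or within 5 kb of the start of one. These had a median DRIP of 564 and a ratio to the trend of 1.115, and 24.1% were at least 2-fold above it (18.0% of all TSSs). The other 193 had 373 and 0.756, and 15.5%. All 3000 TSSs split in the same way differed in the same direction, by less. Their ratios were 1.05 and 0.989, with 20.9% and 17.1% at least 2-fold above the trend. Of the antisense-named genes 44 of 49 were of the first kind, against 24.6% of all 3000 TSSs. Starts with an annotated start on the opposite strand within 1 kb upstream (459) had a median of 537 against 524 at the other 2541. Their ratio to the trend was 0.967 against 1.02. Starts within 10 kb of an origin centre (197) had 479.96, and those with none within 50 kb (2419) 534. This order did not hold for a limit of 5 kb, where the ratio of near to far was 1.09.

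Zinc finger genes on chromosome 19 stood apart from their neighbours. Chromosome 19 had the highest median of all chromosomes, at 799 over 190 TSSs. It divided into 63 ZNF genes with a median of 482 (ratio to the trend 1.01) and 127 other genes with 1020.1 (1.81), of which 54 were at least 2-fold above the trend (42.5%, against 18.0% of all TSSs). Median GC content was 58.7% in the ZNF genes and 61.4% in the others, and WT ChIP density at the start 0.752 and 0.779. KLF2, PPP1R15A, the immediate-early gene FOSB (6129.7) and C19orf24 (7381) were among the others. ZNF genes elsewhere had a ratio of 0.885. The highest ZNF gene was ZNF629 on chromosome 16, at 4726, and the lowest ZNF658, at 92.4, which has a near-identical copy.

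Other chromosomes also lay off the overall median. Chromosomes 17 (720, 1.33 of the trend) and 22 (683, 1.25) were high, and chromosomes 21 (334, 0.676) and X (343, 0.753) low. On X the median WT ChIP density was 0.653 at the start and 0.595 in the flanks, against 0.782 and 0.668 over all TSSs. Flank densities of chromosomes 21 (0.620), 17 (0.629) and 22 (0.643) were also below 0.668. Chromosome 21 holds copied windows, such as those of AP001631.10 and CH507-152C13.6, and PRMT2 near its end. What part these have in its low DRIP was not tested. On chromosome 10 DRIP changed along the chromosome. The 113 TSSs beyond 60 Mb had a median of 712 and a ratio to the trend of 1.39, the 35 before it 319 and 0.721. The WT ChIP flank density was 1.00 and 0.580 in the same sets, against 0.668 over all TSSs, so the background of an unrelated assay differed in the same direction. GC content was 60.7% and 60.6%, and the median BrU-seq signal 3.07 and 1.21. A gain of the long arm of chromosome 10 is a known feature of RPE1 cells, and how much of the difference in DRIP it carries was not tested. The limit of 60 Mb was set with earlier results of these data known.

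**Figure D3:**
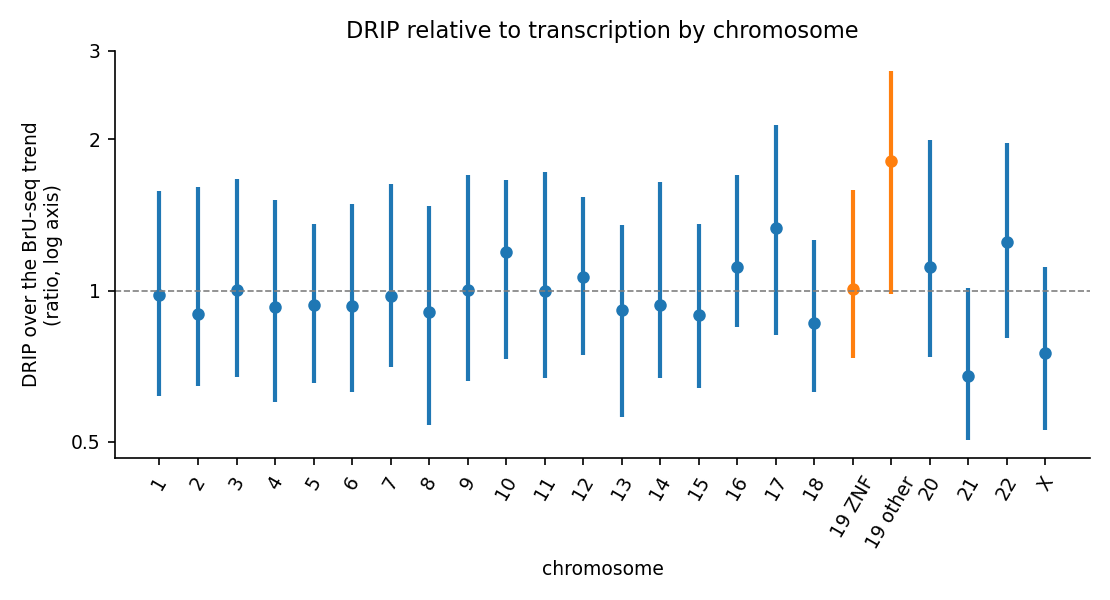
DRIP divided by the running median at the same BrU-seq rank (log axis), by chromosome, with points at the median and bars from the 25th to the 75th percentile of start sites; chromosome 19, in orange, is split into ZNF genes and other genes. The other genes of chromosome 19 sit at 1.81 and its ZNF genes at 1.01, with chromosome 21 lowest at 0.676.

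Start sites near chromosome ends were low in DRIP. All 14 TSSs within 200 kb of the end of the hg38 chromosome sequence were at or below 0.5 times the trend, a level that 12.1% of all TSSs reached. Their ratios ran from 0.0609 (C8orf33) to 0.453 (ZNF324B), with a median DRIP of 99.7. They lie on 8 chromosomes, 13 of them at the end with the higher coordinates. They include METRNL (247), PCMTD2 (75.1), PRMT2 (81.9), which encodes an arginine methyltransferase, ARSA (117), the arylsulfatase A gene, UPF3A (151.6), a factor of nonsense-mediated decay, and ZBTB45 (410.4). RABL2B alone among them has a near-identical copy. In the other 13 the median WT ChIP density was 0.790 at the start and 0.621 in the flanks, against 0.782 and 0.668 over all TSSs, and the median GC content 65.8% against 60.5%. The median coverage in that assay was thus near that of all TSSs, although the TSS listed as TDO2 had only 0.184, and the median GC content was above it. The cause was not tested, and the distance classes were chosen after the data had been seen.

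Further from the ends the order turned round. The 23 TSSs between 200 and 500 kb from an end had a ratio to the trend of 0.662, the 42 between 500 kb and 1 Mb 1.22, and the 79 between 1 and 2 Mb 1.93. Between 2 and 5 Mb the ratio was 1.47 (196 TSSs) and beyond 5 Mb 0.966 (2646). In the class from 1 to 2 Mb, 37 of 79 were at least 2-fold above the trend (46.8%, against 18.0%), among them FASN, TOR4A and FLNA. These 79 lie on 21 chromosomes, and without chromosome 19 the ratio was 1.93 over 67 TSSs. Their median GC content was 65.1%.

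**Figure D4:**
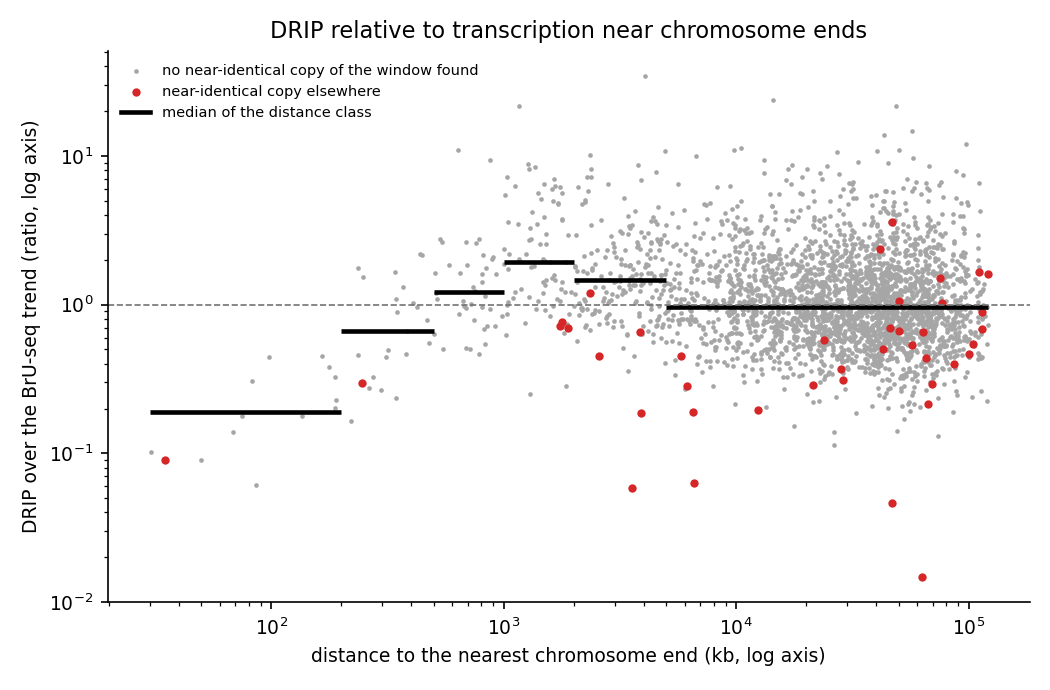
DRIP divided by the running median at the same BrU-seq rank, against the distance of the start site from the nearest chromosome end (both log axes); red points have a near-identical copy of their window and black bars are medians of distance classes. The 14 start sites within 200 kb all lie at or below 0.453, and the median bar reaches 1.93 between 1 and 2 Mb.

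Of the gene lists, immediate-early genes, which respond to serum or stress without new protein synthesis, had the highest DRIP. Of 44 listed, 17 were measured, with a median of 5868 against 528 over all TSSs. All 17 were above the overall median (50.0% of all TSSs), 13 in the highest decile (10.0%) and 0 in the lowest. EGR1 was highest and KLF4, a pluripotency and stress factor, lowest at 569. FOS had 7976, MCL1, an anti-apoptotic relative of BCL2, 6765, ZFP36L1, which promotes mRNA decay, 6456, MYC 5868 and SGK1 1523. These genes were also strongly transcribed, with a median BrU-seq signal of 82.2. Against the running median their ratio was 4.28, and 11 of 17 were at least 2-fold above it (18.0%). Against the straight line, which keeps climbing, it was 2.67 and 10 of 17.

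Matrix and cytoskeleton genes also lay above the trend. All 8 measured of 56 exceeded the overall median, with a list median of 1841, a ratio to the trend of 2.16 and 4 in the highest decile (10.0%). FLNA, the actin crosslinker filamin A, had 6827, and COL1A1, which encodes a chain of type I collagen, 635. The 6 measured p53 targets of 24, in cells without p53, had a median of 898 and a ratio of 1.16, with PLK2 at 4942, GADD45A at 3355 and SESN2 at 322.

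Housekeeping lists and heat shock genes had medians above that of all TSSs, with median ratios to the trend between 0.849 and 1.24. At or below 0.5 times the trend (12.1% of all) were 4 of 16 ribosomal protein, 3 of 19 splicing, 0 of 7 heat shock and 5 of 22 oxidative phosphorylation genes. Against the straight line the median ratios of these lists, in the same order, were 0.932, 0.927, 1.04 and 0.804. Ribosomal protein genes (16 of 83) had a median of 1423 and a ratio of 1.05 at a median BrU-seq signal of 94.7. RPL27 had 4815, RPS24 3443 and RPS27L 233. The median DRIP of ribosomal protein genes was thus below that of immediate-early genes, whose median BrU-seq signal was 82.2. Median GC content around the start also differed, at 55.8% in ribosomal protein and 65.8% in immediate-early genes. How much of the difference in DRIP goes with GC content was not tested. Splicing factor genes (19 of 60) had 998 and 0.895, from HNRNPF (5407) and TRA2B (3370) down to SRSF5 (304). Heat shock genes (7 of 24) had 915 and 1.24, with HSP90AA1 at 2213, DNAJB1 at 2198 and HSPA13 at 334. Nuclear genes of oxidative phosphorylation (22 of 76) had 574 and 0.849, with ATP5D (2094) and UQCRC1 (2012) highest and NDUFA5 (139.96) lowest.

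Among genes whose products act on transcription, replication and R-loops themselves, the first 2 lists had medians below the overall median and the third above it. RNA polymerase II and elongation factor genes (9 of 37) had a median of 346 and a ratio of 0.577. Of these 9, 3 were above the overall median (50.0% of all TSSs). SUPT5H, a subunit of DSIF, was the highest at 3234, and its listed start lies within 10 kb of RPS16. ELOF1 had 753, and CTR9 of the PAF1 complex 132. Replication genes (19 of 54) had 419.7 and 0.740, with 0 in the highest decile (10.0%). MCM2 had 1407, POLD2 1010.4 and ORC5 140.5. R-loop factors (8 of 33) had 686 and 1.25, all between 486 (AQR) and 1269 (PIF1). In the highest and the lowest decile were 0 each (10.0% of all), which 8 genes cannot set apart from that share. DDX21 had 1163.

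The smallest lists can only be named. Loci commonly used in DRIP-qPCR were measured for 4 of 18, EGR1 (18840), ZNF554 (3296), BAMBI (516) and ING3 (404). They ran from the highest DRIP of all to values below the overall median. OTX2 had 826, MITF 496 and PAX6 398, while SFTPB had 1503 and TNNT1 852. LINC00657, the non-coding RNA NORAD, was the single measured member of the host genes and long non-coding RNAs, at 1169. The lists are small and hold genes of different BrU-seq levels, and no list was tested against others.

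**Figure D5:**
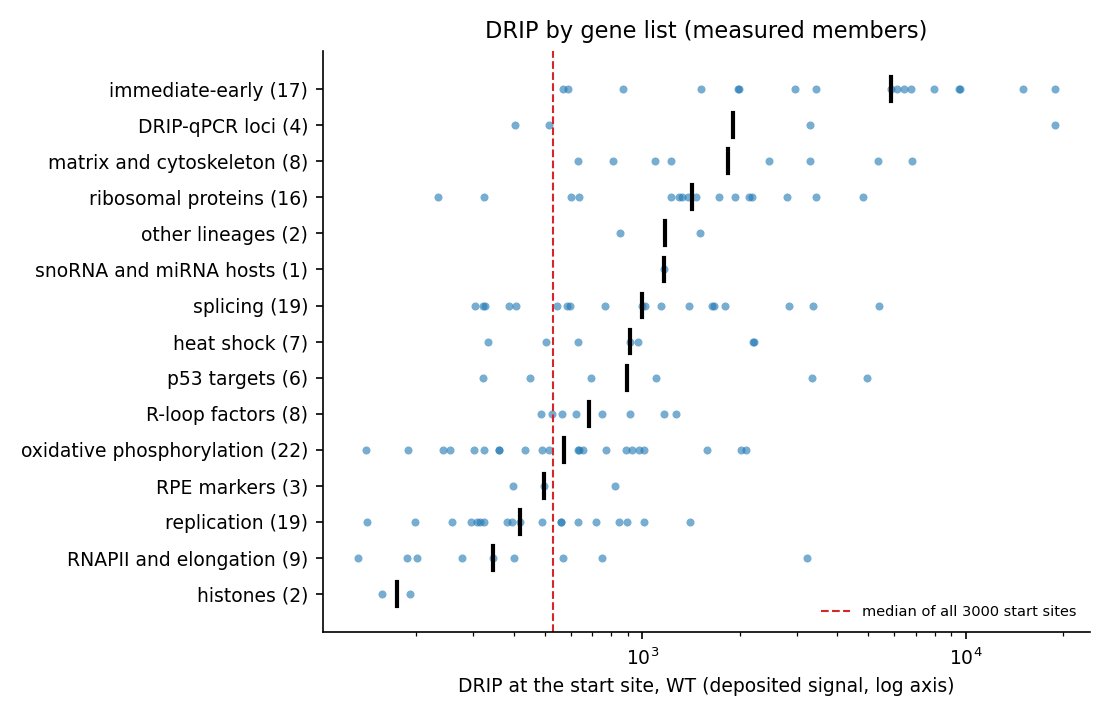
DRIP signal (log axis) of the measured members of 15 gene lists, 1 point per gene, with the number measured in brackets, black bars at list medians and the dashed line at the median of all 3000 start sites (528). Immediate-early genes lie highest (median 5868) and the 2 histone genes lowest (157 and 192).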

How the data were processed

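Per the file headers, the DRIP and BrU-seq values are signals of WT mock cells that the authors deposited as 1 value per TSS. How they were normalised, and the depth, are not stated there. The anti-TY ChIP-seq values were deposited as a density score for each position, normalised to spike-in chromatin and averaged over 3 WT libraries per the labels, and the gene lengths and coordinates (hg38) come from the authors' TSS table. BWA 0.7.17 and STAR 2.7.7a, HOMER 4.8.2, SAMtools 1.11, R 4.0.5 and Trim Galore 0.6.5 appear in the submitters' processing notes, with no step given for each. A total of 0 columns of per-sample values were left unused.

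The tables were joined by gene identifier. GENCODE 44 and the hg38 sequence gave biotypes, neighbouring starts and base composition, and 2584 of 3000 TSSs had an annotated start of their own gene no more than 100 bp away. Copies were sought with minimap2 2.31. Classes hold equal numbers of TSSs. The calculations were tested on simulated data. The members and lists were chosen with earlier results of these data known. Named genes are the 12 highest and 8 lowest DRIP values, the 8 furthest above and 8 below the trend, the 3 most transcribed and 3 longest genes, and the 2 highest and the lowest of each list and the extremes of each symbol class. Other genes were named after their values were seen, and 1 gene that this rule names is not reported here. CFAP20 and CCNC are not analysed here. Alternatives covered the TSSs used, windows, thresholds, the trend and the quantities held. Calculations used pandas 2.3.3, pysam 0.24.0, numpy 2.4.6 and scipy 1.17.1 in Python 3.11.15, and figures matplotlib 3.10.9.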

Additional observations from a re-analysis of the deposited data

How the results depend on the processing

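No paired analysis was possible because DRIP is 1 value per TSS and the ChIP tables are averages over replicates, so no library could be left out. Alternatives that used GC content, and those leaving out TSSs with copies or within 200 kb of a chromosome end, were chosen after seeing the data. The ratio of the highest over the lowest BrU-seq class was 2.58 and became 2.25 in genes of at least 5 kb, 2.57 without copies and chromosome ends, 3.70 with 10 classes and 2.99 as a ratio of means. The rho with BrU-seq (0.400) became 0.379, 0.404, 0.438 (Pearson of log2 values), 0.376 (gene length held) and 0.387 (GC content held), the first 2 in genes of at least 5 kb and without copies and ends. The rho with gene length (-0.147) reversed to 0.0217 with BrU-seq held. It was -0.146 without TSSs having another listed TSS within 5 kb, -0.126 in genes of at least 5 kb and -0.156 without copies and ends. In the same order of these 3 settings, the ratio of clone-named and LINC genes over other genes (0.827) was 0.838, 0.832 and 0.830, that of near over far from an origin centre (0.898) 0.900, 0.926 and 0.888, the rho with GC skew (0.00807) 0.00763, 0.0222 and 0.00969, and the CpG rho (0.103) 0.111 and 0.110 in the last 2. The rho with GC content (0.324) was 0.327 in the first and 0.339 in the last, 0.355 over 0 to 1000 bases and 0.306 with BrU-seq held. Clone-named and LINC genes gave 0.917 as a ratio of means and 0.950 relative to the trend. The ratio of divergent over lone starts (1.02) was 1.01 within 500 bp and 1.08 within 2000 bp, and reversed to 0.951 relative to the trend. The ratio near over far from an origin centre reversed to 1.09 within 5000 bp and was 0.901 within 20000 bp and 0.981 relative to the trend. The CpG rho was 0.0911 over 0 to 1000 bases and 0.0572 with BrU-seq held, and reversed to -0.142 with GC content held. The GC skew rho was 0.0253 over 0 to 1000 bases, 0.0430 in the 500 bases before the start and 0.0240 with BrU-seq held. The 540 TSSs above the trend became 884 at a threshold of 1.5-fold and 260 at 3-fold, and the 362 below it 754 and 101. Of 12 lists with 3 or more measured members, 9 had a median DRIP above that of all TSSs and 8 a ratio to the trend above its median. The cause of these changes was not tested. With the depth unknown, no limit can be set on how small a difference between TSSs these values resolve.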
